A study of Rattus norvegicus with 4 samples.

Results

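The 10 genes described here are grouped as immediate early genes. They include the Fos family (Fos, Fosb, Fosl1 and Fosl2) and Jun family (Jun, Junb and Jund) of the transcription factor AP-1. The others are the zinc finger factors Egr1 and Egr3, and Ier2. The 10 genes were chosen by gene symbol, with earlier results of these data known. All 10 were found among the 18699 genes of the expression table, each in a single row, and all 10 passed the filter on low counts. The cells were ventricular myocytes of neonatal Sprague Dawley rats aged 1 to 3 days, labelled wild type, and grown as primary cultures with 0.1 mM bromodeoxyuridine to hold back dividing non-muscle cells. They received vehicle (2 libraries) or 1 µM carfilzomib (2 libraries) for 24 h. Carfilzomib is an irreversible proteasome inhibitor used against multiple myeloma, and the study asked how it harms heart muscle cells. The labels do not say if replicate libraries stem from different cultures or rats, and p-values therefore reflect a spread between libraries that could be purely technical.

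Immediate early genes are transcribed within minutes of a growth factor, hormonal or mechanical signal, without need of new protein synthesis, through factors such as SRF and CREB that already sit on their promoters. AP-1 is a dimer of a Jun protein with a Fos protein or with another Jun protein. FOS proteins dimerise with JUN proteins but not with each other. EGR proteins bind GC-rich sites and induce their own co-repressors, and Ier2 encodes a small nuclear protein that is induced together with Fos. In heart muscle cells Fos, Jun and Egr1 are known for their rapid response to stretch and adrenergic stimulation. Many of the encoded proteins are short-lived substrates of the proteasome. Only RNA was measured here, and at a single time.

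Promoter sequences were in the RefSeq table (build GRCr8) for 7 of the 10 genes, Fos, Jun and Egr3 being the others. The 250 bases upstream of the start are shown for Egr1, Ier2, Jund and Fosl1, since their promoters hold different motifs and Egr1 and Ier2 fell, Fosl1 rose and Jund missed the threshold. Each sequence is on the strand of its gene, 5′ to 3′. Capitals mark matches to the CArG box bound by SRF, to the CRE bound by CREB and ATF factors (TGACGTCA), to its core alone (TGACG) and to an EGR site (GCGNGGGCG), searched on both strands. A full CRE holds the core on each strand, and an EGR site overlaps none of the others in these windows. The windows are chr18:26736828-26737077 (plus strand) for Egr1, chr19:40399123-40399372 (plus) for Ier2, chr16:18769772-18770021 (minus) for Jund and chr1:212183635-212183884 (plus) for Fosl1.
Egr1: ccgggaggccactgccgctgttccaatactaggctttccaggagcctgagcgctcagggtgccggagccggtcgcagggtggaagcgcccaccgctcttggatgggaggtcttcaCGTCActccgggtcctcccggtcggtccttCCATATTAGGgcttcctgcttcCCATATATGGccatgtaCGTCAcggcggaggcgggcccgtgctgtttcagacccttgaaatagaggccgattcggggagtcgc
Ier2: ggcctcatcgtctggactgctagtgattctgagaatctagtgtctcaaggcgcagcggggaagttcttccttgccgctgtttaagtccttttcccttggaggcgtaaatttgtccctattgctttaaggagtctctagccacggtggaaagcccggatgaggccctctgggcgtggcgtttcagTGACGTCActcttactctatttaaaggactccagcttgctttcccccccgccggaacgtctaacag
Jund: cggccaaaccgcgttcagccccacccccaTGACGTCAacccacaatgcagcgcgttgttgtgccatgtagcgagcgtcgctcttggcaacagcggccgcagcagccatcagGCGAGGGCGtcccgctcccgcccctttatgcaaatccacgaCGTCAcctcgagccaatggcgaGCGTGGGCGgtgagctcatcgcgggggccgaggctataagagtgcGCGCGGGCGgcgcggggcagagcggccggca
Fosl1: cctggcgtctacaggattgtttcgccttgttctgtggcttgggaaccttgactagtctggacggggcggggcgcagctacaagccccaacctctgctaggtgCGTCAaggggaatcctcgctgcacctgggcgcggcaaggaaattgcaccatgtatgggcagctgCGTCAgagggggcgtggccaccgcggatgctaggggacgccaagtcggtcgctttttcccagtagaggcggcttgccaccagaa

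Egr1 alone of the 7 promoters held a CArG box. It held 2, CCATATTAGG starting 105 bases and CCATATATGG starting 83 bases upstream of the start, and 2 CRE cores. Ier2 held a full CRE starting 66 bases upstream. Jund held a full CRE, another CRE core and 3 EGR sites, and Fosl2 held 1 EGR site. Fosl1 held 2 CRE cores and Junb held 1. None of the 7 windows held TGANTCA (N is any base), a pattern that takes in the AP-1 site and other sequences. Fosb held none of the motifs. Over all 27457 promoters of the table, the same window held a CArG box in 1.50%, a TGANTCA site in 6.36%, a full CRE in 1.70%, a CRE core in 19.0% and an EGR site in 4.53%. Over the 11307 tested genes with a promoter in the table the shares were 1.16%, 4.40%, 2.81%, 27.6% and 8.67% in the same order. These matches describe letters in the window and not bound sites.

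Carfilzomib-treated cells held less RNA of Egr3, Fos, Egr1, Fosb and Ier2, by between 1.78-fold and 3.38-fold, and slightly less of Fosl2 and Jun. Fosl1 rose 1.43-fold. Junb and Jund missed the threshold. By edgeR's quasi-likelihood test with Benjamini-Hochberg adjustment over all 14519 tested genes at 0.05, 7 of the 10 genes fell, where 30.1% of all tested genes fell. A rise was called for 1 of the 10, where 30.6% of all tested genes rose, and 60.7% of tested genes were called in either direction. The median log2 fold change was -0.56 over the 10 genes and 0.0028 over all tested genes. Since the 10 genes were chosen with earlier results of these data known, these contrasts are a description and not a test. The vehicle and carfilzomib libraries did not overlap for any of the 10 genes, which was also so for 79.9% of all tested genes.

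These counts depended on the fit, and the cause was not tested. With DESeq2 5 of the 10 genes were called lower. The share of all tested genes called lower in that fit is not given here, so nothing particular to the 10 genes can be read from it. All levels below are in CPM, counts scaled to the library total after TMM normalisation, unless FPKM is named.

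**Figure D1:**
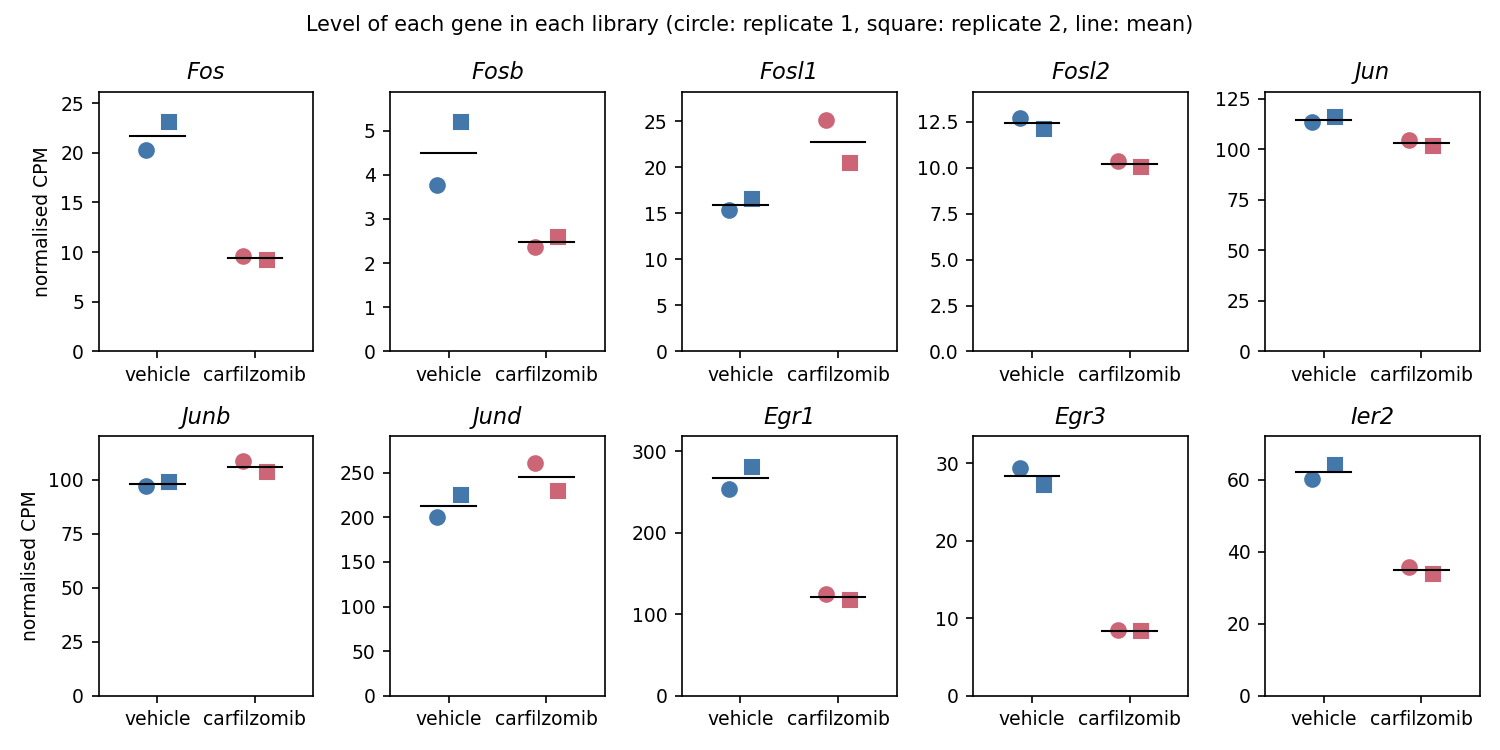
Normalised CPM (y axis, from 0) of the 10 genes in the 2 vehicle (blue) and 2 carfilzomib libraries (red), with lines at the group means. In every panel the groups are separate, with carfilzomib at 8.32 and 8.44 CPM for Egr3 and with carfilzomib on top for Fosl1, Junb and Jund.

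Among the Fos genes, Fos (gene ID 314322), the prototype partner of JUN, was at 20.3 and 23.1 CPM in the vehicle libraries and at 9.64 and 9.22 CPM in the carfilzomib libraries. Both treated libraries lay below the lower of the vehicle libraries by more than the spread of either group. Its log2 fold change was -1.20 ± 0.10 (SE; edgeR adjusted p = 9.47e-08). Fos thus fell 2.30-fold, and 5.30% of tested genes had a lower log2 fold change.

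Fosb (gene ID 100360880) encodes a FOS protein with a strong activation domain and a truncated splice form that lacks it. Its FPKM was the lowest of the 10 genes in every library, and it was at 3.77 and 5.20 CPM with vehicle and 2.36 and 2.60 CPM with carfilzomib. That is 70 and 96 counts against 45 and 49 counts, and the vehicle libraries differed from each other by more than the treated ones did. Its log2 fold change of -0.85 ± 0.21 (SE) had an edgeR adjusted p of 0.00287. Without vehicle replicate 2 the value was -0.61 and the edgeR adjusted p 0.0754.

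Fosl1 (gene ID 25445) encodes FRA-1, a FOS-related protein that lacks the strong activation domain of FOS. It was the gene of the 10 that rose, from 15.3 and 16.5 CPM with vehicle to 25.1 and 20.4 CPM with carfilzomib. The treated libraries were the more spread of the groups, yet both lay above both vehicle libraries. The log2 fold change was 0.52 ± 0.10 (SE; edgeR adjusted p = 5.76e-04), and 13.7% of tested genes had a higher value. It was called in each alternative fit, with log2 fold changes from 0.36 to 0.66.

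Fosl2 (gene ID 25446), which encodes the related FRA-2, was at 12.7 and 12.1 CPM with vehicle and 10.4 and 10.1 CPM with carfilzomib. The groups were close but separate. The log2 fold change was -0.28 ± 0.11 (SE; edgeR adjusted p = 0.035). That call was lost without any 1 of the 4 libraries, with edgeR adjusted p from 0.0563 to 0.148. It was also lost with DESeq2, where the adjusted p was 0.264, and with counts scaled to library size alone (edgeR adjusted p 0.0601).

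Of the Jun genes, Jun (gene ID 24516), the founding member of AP-1, was at 113 and 116 CPM with vehicle and 105 and 102 CPM with carfilzomib. Its groups were tight and separate, and it had a log2 fold change of -0.15 ± 0.05 (SE; edgeR adjusted p = 0.0125). The call was lost with DESeq2 (adjusted p 0.0644), without vehicle replicate 2 (edgeR adjusted p 0.0503), without carfilzomib replicate 1 (0.0533) and without carfilzomib replicate 2 (0.139). With limma on log2(FPKM + 0.5) it was lost too, at an adjusted p of 0.0611.

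Junb (gene ID 24517), which often restrains JUN activity, was at 97.3 and 99.1 CPM with vehicle and 109 and 103 CPM with carfilzomib. The resulting log2 fold change, 0.11 ± 0.05 (SE), missed the threshold (edgeR adjusted p = 0.07), and had a 95% interval from 0.0032 to 0.22. Jund (gene ID 24518), the Jun gene that is expressed broadly in resting cells, was at 201 and 225 CPM with vehicle and 262 and 230 CPM with carfilzomib. Carfilzomib replicate 2 lay just above the higher vehicle library. The log2 fold change of Jund, 0.21 ± 0.08 (SE), also missed it (edgeR adjusted p = 0.067), with a 95% interval from 0.01 to 0.40. Scaled to library size alone, both Junb (0.14) and Jund (0.24) passed, with edgeR adjusted p of 0.022 and 0.0326. Both also passed with limma on log2(FPKM + 0.5), with adjusted p of 0.03 and 0.0345. The value of Jund turned on single libraries. Without carfilzomib replicate 2 it was 0.30 and passed (edgeR adjusted p 0.00187), and without vehicle replicate 2 it was 0.29 (0.0532). Without vehicle replicate 1 it was 0.13 (edgeR adjusted p 0.302), and without carfilzomib replicate 1 it was 0.11 (0.205).

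Egr1 (gene ID 24330), a zinc finger factor induced by nearly all growth signals, was at 254 and 281 CPM with vehicle. With carfilzomib it was at 124 and 117 CPM. Each treated library thus held less than either vehicle library, by far more than the replicate spread. The log2 fold change was -1.15 ± 0.05 (SE; edgeR adjusted p = 2.98e-10), a 2.22-fold fall. Its promoter, shown above with its pair of CArG boxes, is a textbook target of SRF and its partner factors.

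Egr3 (gene ID 25148), a related factor that EGR1 can itself induce, had the largest fold change of the 10. It was at 29.4 and 27.2 CPM with vehicle and 8.44 and 8.32 CPM with carfilzomib. The treated libraries nearly coincided, well under the vehicle libraries. The log2 fold change was -1.76 ± 0.09 (SE; edgeR adjusted p = 4.46e-10), and 1.89% of tested genes had a lower one. Ier2 (gene ID 494344) was at 60.3 and 64.1 CPM with vehicle and 35.9 and 33.9 CPM with carfilzomib. It fell by 0.83 ± 0.06 (SE; edgeR adjusted p = 3.52e-08) on the log2 scale, and its groups were tight and separate.

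**Figure D2:**
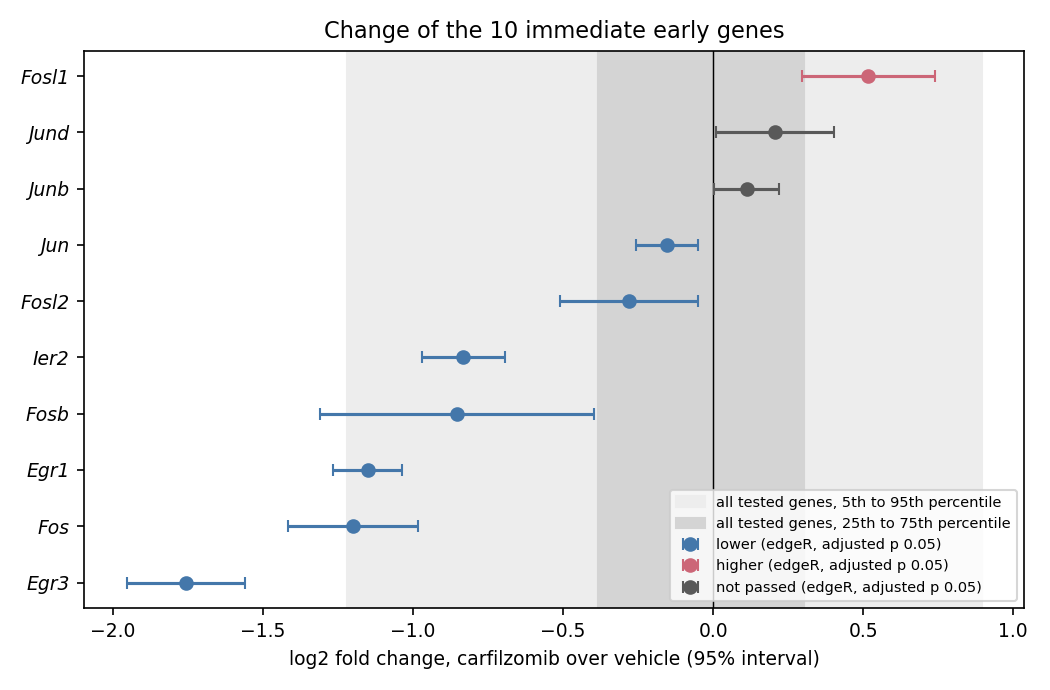
Log2 fold change of carfilzomib over vehicle (x axis) for each gene (rows), with 95% intervals from edgeR. Light and dark grey bands hold the middle 90% and 50% of all tested genes. Egr3 lies below the light band, whose lower edge is at -1.22, and Fos and Egr1 lie just inside it. Fosl2, Jun, Junb and Jund lie within the dark band, from -0.38 to 0.30.

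A fall of at least 2-fold was reached by 3 of the 10 genes, Egr3, Fos and Egr1. Among all tested genes 7.38% were called lower by at least 2-fold. The authors' deposited table of their DESeq2 comparison lists 6 of the 10 genes. It holds only part of the genes of the expression table. Fosb, Fosl2, Jun and Junb are not listed in it, and the reason was not tested. As the share of all genes that it lists is not given here, nothing particular to the 10 genes can be read from this count. In the authors' deposited table the log2 fold changes are -1.75 for Egr3, -1.20 for Fos, -1.15 for Egr1, -0.83 for Ier2, 0.52 for Fosl1 and 0.21 for Jund. The q-value of Jund in the authors' deposited table is 0.0137, while the DESeq2 fit made here did not call Jund.

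Levels of different genes were compared on the authors' FPKM, which divides by gene length. With vehicle the order from high to low was Egr1 (179 FPKM, the mean of 2 libraries), Jund (129), Junb (55.9), Ier2 (41.6), Jun (37.2), Fos (13.9), Fosl2 (13.3), Fosl1 (9.74), Egr3 (8.89) and Fosb (1.39). The ranges of Fos and Fosl2 overlapped, as did those of Fosl1 and Egr3, so those neighbours had no order beyond their spread. With carfilzomib Jund came on top at 152 FPKM and Egr1 was next at 82.4 FPKM. Fosl1 at 14.3 FPKM then stood above Fosl2 (11.2) and Fos (6.20), and no neighbours overlapped in that order. Egr3 and Fosb remained at the foot of the order, at 2.06 and 0.78 FPKM.

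The summed FPKM of the Fos genes was 37.2 and 39.4 in the vehicle libraries and 34.1 and 30.7 in the carfilzomib libraries. Within that sum the share of Fos was 35.1% and 37.5% with vehicle and 18.6% and 19.8% with carfilzomib. The share of Fosl1 was 25.2% and 25.6% with vehicle and 46.1% and 41.7% with carfilzomib. Fosl1 was thus the most abundant Fos gene in both treated libraries and the third in both vehicle libraries. Fosl2 kept between 32.8% and 36.5% of the sum in all 4 libraries.

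The Jun genes summed to 214 and 230 FPKM with vehicle and to 260 and 237 FPKM with carfilzomib, and Jund made up 56.9% to 62.3% of it. The Jun sum was 5.76 and 5.85 times the Fos sum with vehicle and 7.62 and 7.72 times with carfilzomib. With 2 libraries a group, these shares and ratios were not tested.

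**Figure D3:**
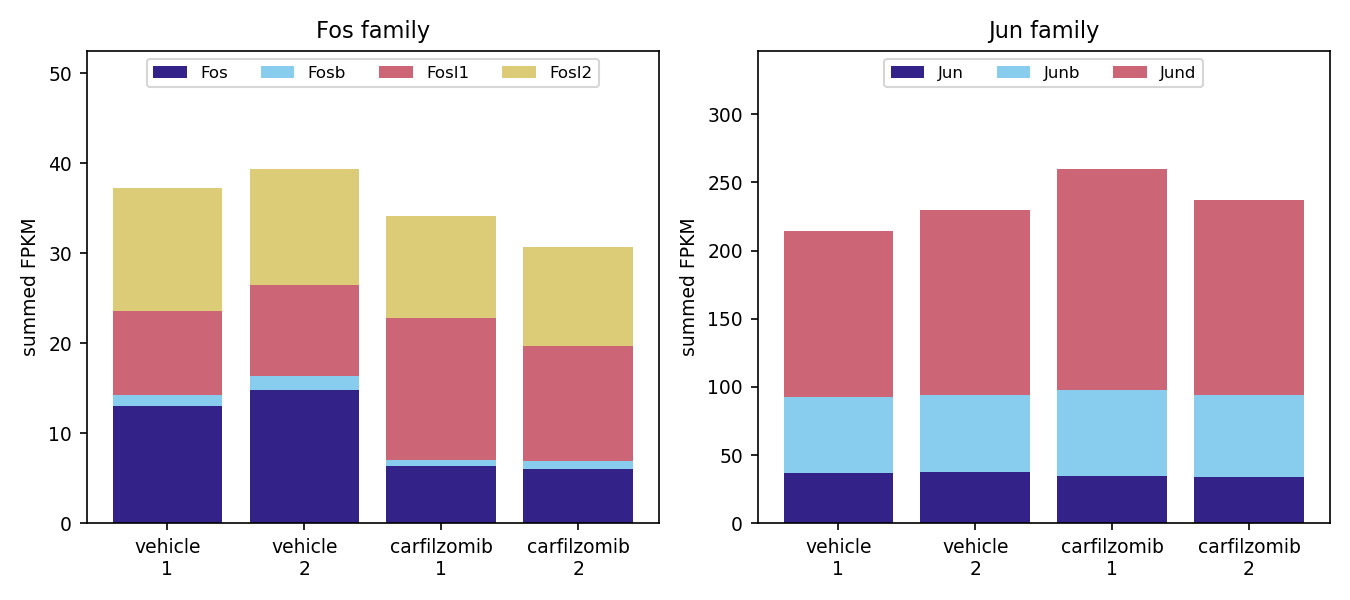
Summed FPKM (y axis) of the Fos genes (left) and Jun genes (right) in each library, with each gene as a segment. The Fos segment is smaller and the Fosl1 segment larger in both carfilzomib libraries, and Jund is the largest Jun segment in all 4.

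The FPKM of each gene depends on the gene length the authors used, which can be worked back from the estimated count, the FPKM and the total count of the library. That length was 926 bases for Fosl2 and between 1476 and 3220 bases for the 8 genes other than Fosl2 and Egr3, so the level of Fosl2 relative to the others rests on a short gene model. For Egr3 the length itself differed between the groups. It was 3023 and 3298 bases with vehicle and 4119 and 4105 bases with carfilzomib, a ratio of 1.30. For the other 9 genes the ratio was between 0.999 and 1.005. Of 11276 genes with a mean of at least 5 CPM, 95% had a ratio between 0.961 and 1.04. On FPKM Egr3 was therefore 4.31-fold lower with carfilzomib, against 3.38-fold on counts. None of the 10 genes had estimated counts with decimals. The sources used here do not state whether counting used strand, so reads of overlapping antisense genes cannot be told apart.

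For most of these genes the libraries of a group differed in the same direction. Some differences were small, as for Junb at 1807 and 1831 counts with vehicle, and the directions were not tested. Vehicle replicate 2 was above vehicle replicate 1 for 8 of the 10 genes, all but Fosl2 and Egr3, while 50.1% of tested genes were. Carfilzomib replicate 1 was above carfilzomib replicate 2 for 9 of the 10 genes, all but Fosb, while 48.4% of tested genes were.

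The relatives of these genes were read from lists of their pathway, whose counts stand beside the 30.1% of all tested genes that fell and the 30.6% that rose. Of 5 further EGR genes and NAB co-repressors 3 fell and 2 rose. Egr2 (gene ID 114090) was at 40.0 and 39.8 CPM with vehicle and 16.7 and 16.6 CPM with carfilzomib, a log2 fold change of -1.26 ± 0.07 (SE). Nab2, a co-repressor that EGR proteins induce and that has split reads (estimated counts with decimals), fell by 0.26 on the log2 scale. Its relative Nab1, also with split reads, rose by 0.34, and Wt1, a related zinc finger gene, by 0.28. The call of Wt1 was lost with DESeq2 (adjusted p 0.122), without vehicle replicate 1 (edgeR adjusted p 0.0564) and without carfilzomib replicate 2 (0.0835). Egr4 was at 1.89 and 1.25 CPM with vehicle and 0.052 and 0.16 CPM with carfilzomib. Nothing further is drawn from so low a level.

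Of 14 tested bZIP genes, whose proteins can pair with JUN or FOS or compete with them, 8 fell (57.1%), 5 rose (35.7%) and 1 missed the threshold; the median log2 fold change was -0.32. Nfil3 and Atf4 each fell by 0.69. Mafg, a small MAF protein that pairs with NRF factors, rose from 92.0 and 98.4 to 224 and 218 CPM, a log2 fold change of 1.21 ± 0.05 (SE). Of its relatives, Maff rose by 0.41 and Mafk, with split reads, by 0.37. Atf2, a partner of JUN on CRE sites, rose by 0.18, and Atf3, with split reads, by 0.22. Both Atf calls were lost with DESeq2 (adjusted p 0.246 for Atf2 and 0.235 for Atf3) and without carfilzomib replicate 1 (edgeR adjusted p 0.122 and 0.226). Atf2 also lost its call without vehicle replicate 2 or carfilzomib replicate 2, and Atf3 without vehicle replicate 1 (log2 fold change 0.14, edgeR adjusted p 0.204). With DESeq2 the counts for this list were 4 lower and 3 higher. The shares of all tested genes called with DESeq2 are not given here, so these counts cannot be set beside the shares above. Counts for this list also moved when some single libraries were left out.

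Of 19 other immediate early transcription factors that were tested 6 fell (31.6%, close to the share of all tested genes), 9 rose (47.4%) and 4 missed the threshold. The median was 0.035. Nr4a1, an orphan nuclear receptor, fell from 15.2 and 16.0 to 7.02 and 4.87 CPM, and Sik1, a kinase induced by cAMP listed with them, by 0.76 on the log2 scale. The clock gene Per1 rose by 0.76 and Csrnp1 by 0.61. Of 27 immediate early genes outside that class 11 fell (40.7%), 4 rose (14.8%) and 12 missed the threshold. The median was -0.10. Ccn2 and Ccn1, matricellular growth factors, fell by 1.54 and 1.01 on the log2 scale. Gadd45a, a stress and growth arrest gene, rose by 0.60 and Rhob, a small GTPase, by 0.45. Pim1 and Rgs2 rose by 0.39 and 0.30, the call of Pim1 being lost with DESeq2 (adjusted p 0.118) and without vehicle replicate 1 (edgeR adjusted p 0.0912, log2 fold change 0.25).

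Some MAP kinase phosphatases and Sprouty inhibitors are themselves induced by the kinases they shut off. Of 17 genes of these classes 9 fell (52.9%), 2 rose (11.8%) and 6 missed the threshold. The median was -0.47. Dusp8 fell by 0.70 and Spry2, an inhibitor of growth factor signalling, by 0.56. Dusp10 rose by 0.46 ± 0.11 (SE). Dusp1, an immediate early phosphatase, rose by 0.15 with an edgeR adjusted p of 0.0472. With DESeq2 the adjusted p was 0.0534 for Dusp10 and 0.151 for Dusp1. The call of Dusp1 was also lost without vehicle replicate 1, carfilzomib replicate 1 or carfilzomib replicate 2, with edgeR adjusted p of 0.325, 0.268 and 0.0516 and log2 fold changes of 0.078, 0.12 and 0.20, and with a stricter count minimum (0.0554). Without vehicle replicate 2 Dusp1 kept its call, with a log2 fold change of 0.24. Of 33 MAP kinases, their activators and kinases that they activate 7 fell (21.2%), 13 rose (39.4%) and 13 missed the threshold. The median was 0.078. Mapk9, which encodes the JUN kinase JNK2, rose from 93.2 and 90.9 to 160 and 163 CPM. Map2k3, a p38 activator with split reads, rose by 0.84. Rps6ka2, a ribosomal S6 kinase, fell by 0.77 and Map3k5, which encodes ASK1, by 0.71.

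Of 17 factors that act on immediate early promoters 6 fell (35.3%), 4 rose (23.5%) and 7 missed the threshold. The median was -0.058. Srf, which encodes the factor of the CArG box, was at 201 and 216 CPM with vehicle and 94.3 and 89.0 CPM with carfilzomib. The log2 fold change was -1.19 ± 0.05 (SE; edgeR adjusted p = 3.57e-11). Myocd, a co-activator of SRF with split reads, fell by 0.49. Crem and Atf1, of the CREB family, rose by 0.44 and 0.41, and Mef2d and Crtc1 by 0.38 and 0.22. Crtc1 lost its call with DESeq2 (adjusted p 0.0668) and without carfilzomib replicate 2 (edgeR adjusted p 0.0749). Crem and Mef2d have split reads, and with limma on log2(FPKM + 0.5) Crem was at 0.27.

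Of 12 ubiquitin ligases and adaptors that act on JUN and FOS proteins or their pathway 2 fell (16.7%), 5 rose (41.7%) and 5 missed the threshold. The median was 0.046. Nedd4l, a ligase gene, rose by 0.53 on the log2 scale, and Cul4b, which encodes a ligase scaffold, by 0.45. Skp2 fell by 0.46 and Stub1, with split reads, by 0.30. Of 26 tested textbook targets of AP-1 and EGR 14 fell (53.8%), 9 rose (34.6%) and 3 missed the threshold. The median was -0.44. Spp1, which encodes osteopontin, fell from 188 and 195 to 26.6 and 29.8 CPM, and Thbs1, thrombospondin, by 1.30 on the log2 scale. Ccl2, a chemokine, rose from 55.0 and 58.8 to 181 and 185 CPM, and Cdkn1a, a cell cycle inhibitor, by 0.74 on the log2 scale.

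**Figure D4:**
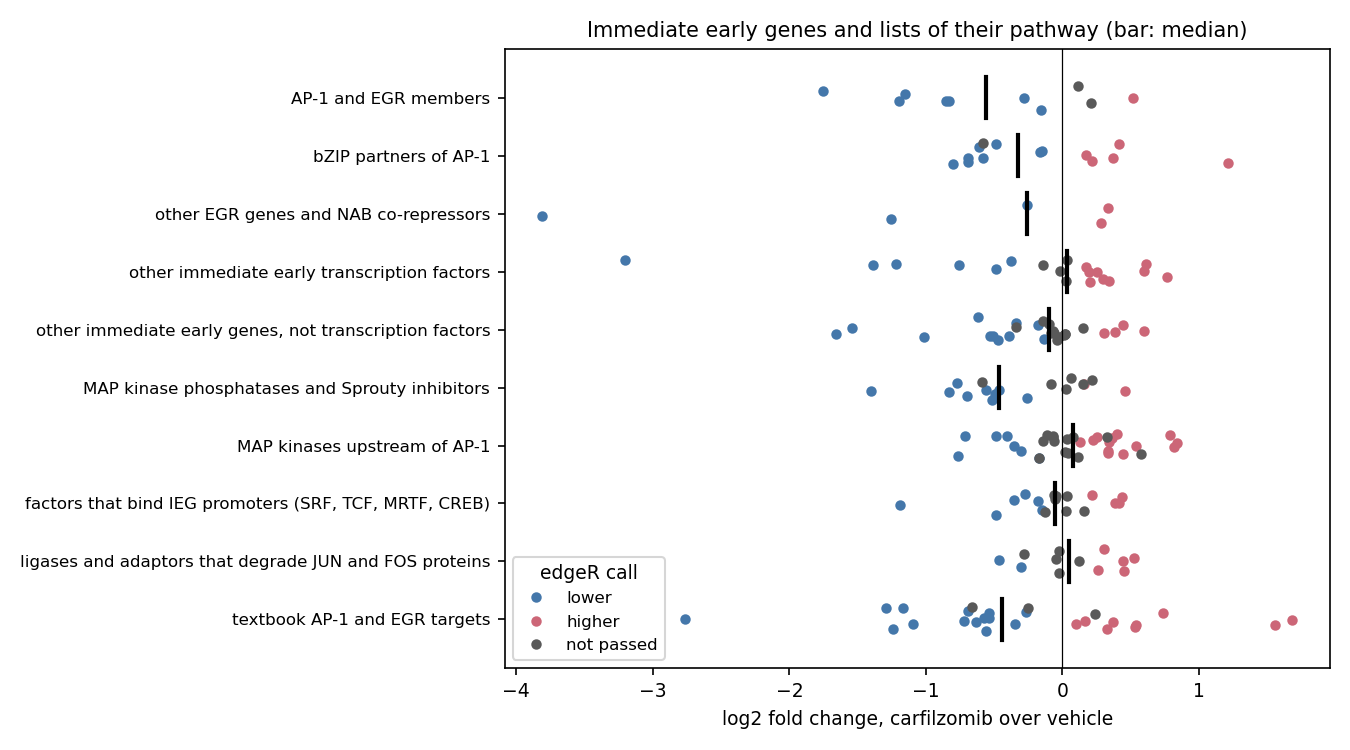
Log2 fold change of carfilzomib over vehicle (x axis) for each tested gene (points, coloured by edgeR call) of the 10 genes and of 9 lists of their pathway (rows), with a bar at each median. Among the rows shown the 10 genes have the lowest median, -0.56, and each of the lists holds points on both sides of 0. Lists of cell type markers are not drawn. Their medians are -0.80 (cardiomyocyte), -0.82 (fibroblast), -1.10 (smooth muscle), -1.37 (macrophage) and -0.35 (endothelial).

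The genes whose pattern was most like that of Egr3 were Thsd4, Spon1 and Sh3bgr. Likeness was the distance between log2 CPM centred on the mean over the 4 libraries, among 9992 genes with a mean of at least 10 CPM, and the distances were 0.039, 0.059 and 0.073. Over 4 libraries this says only that these genes fell by a similar factor, with log2 fold changes of -1.77, -1.75 and -1.69.

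Promoter motifs were set beside the calls of 11307 tested genes with a promoter in the RefSeq table, as a description of the same 250 bases. Of these genes 30.0% fell and 32.0% rose. Among the 131 with a CArG box, as in Egr1, 45.8% fell and 19.8% rose. Among the 498 with TGANTCA, a pattern wider than the AP-1 site, 26.3% fell and 41.0% rose. Among the 318 with a full CRE, as in Ier2 and Jund, 25.2% fell and 32.7% rose. Among the 3116 with a CRE core, as in Egr1, Ier2, Fosl1, Junb and Jund, 25.7% fell and 37.0% rose. Among the 980 with an EGR site 39.3% fell and 29.5% rose.

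The 4 libraries held between 18655450 and 18884333 counts. In bulk RNA fewer cells of a type and less RNA per cell cannot be told apart. Heart muscle markers were present in all libraries, but so were those of other cells, Col1a1 being at 19670 CPM with vehicle. Of 15 cardiomyocyte markers 14 fell, where 30.1% of all tested genes fell. The summed level of the 15 was between 34685 and 34715 CPM with vehicle and between 11718 and 12189 CPM with carfilzomib. Their log2 fold changes ran from -3.79 to 0.001, so the sum does not describe each marker. All 10 fibroblast markers fell, from sums of 27717 and 28276 to 15526 and 14800 CPM. All 9 smooth muscle markers fell, from sums of 4177 and 4326 to 1554 and 1515 CPM. Of 8 tested macrophage markers 7 fell and 1 rose, with sums of 93.4 and 95.6 against 54.5 and 49.2 CPM. Of 9 endothelial markers 3 fell and 2 rose, with sums of 131 and 130 against 129 and 125 CPM. No marker was at 0 in all libraries. The part of these shifts in the changes of the 10 genes was not tested.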

How the data were processed

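RNA of 4 libraries was compared, 2 per group. The authors deposited estimated counts and FPKM per gene, and a table of their DESeq2 comparison (log2 fold change, p-value, q-value), per the file headers. Per the submitters' processing notes the build was Rnor_6.0 and the tools included HISAT, Bowtie2 and featureCounts 1.6.0 beside FastQC 0.11.8, cutadapt 2.0 and R 3.3.2, with no roles given. Columns named as control were taken as vehicle, the only control in the labels, and 10 columns of the expression table were not used here.

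Estimated counts were rounded, filtered with filterByExpr (minimum count 10, minimum total 15), TMM-normalised and tested with edgeR 4.0.16 (robust quasi-likelihood F test) in R 4.3.3, with Benjamini-Hochberg adjustment over all tested genes. Each SE was taken as the size of the log2 fold change over the root of its F statistic. Alternatives used DESeq2 1.42.0 and limma 3.58.1. The scripts were tested on simulated data. Replicates differed by more than counting noise (chi-square per degree of freedom 3.34 and 2.96).

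The members and the lists were chosen with earlier results of these data known. Text names the 10 genes and, from each list, the 2 called genes with the largest rise and the 2 with the largest fall whose mean reached 10 CPM. It also names the 3 genes most like the called member of largest change. Atf2, Atf3, Mafk, Rgs2, Pim1, Mef2d, Crtc1, Egr4 and Col1a1 were named after their values were seen. Some single genes of the lists are not reported here.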

Additional observations from a re-analysis of the deposited data

How the results depend on the processing

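Fos, Egr1, Egr3, Ier2 and Fosl1 kept their direction and their call in all 12 alternative fits. No gene of the 10 changed direction in any of them. The count of the 10 genes called lower was 7, between 4 and 6 when 1 library was left out, and 5 with DESeq2 or an adjusted p under 0.01. The count called higher was 1, 3 when counts were scaled to library size alone, and 3 with limma on log2(FPKM + 0.5). Both counts also varied when 1 library was left out. The shares of all tested genes called in these fits are not given here, so nothing particular to the 10 genes can be read from these counts. In the fits with 3 libraries the lone library of a group was assumed to vary like the others. Fosl2 and Jun lost their call in 6 and 5 of the 12 fits, and Fosb in 1. Junb gained one in 2 and Jund in 3. The cause was not tested. Of 216 counts of the pathway lists under an alternative, 201 were within 1.5 times the value given.

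The replicate numbers of the titles were not shown to pair the libraries, since the correlation across genes of same-numbered deviations was -0.015. With a replicate block 7 of the 10 genes were lower and 1 higher, and 8229 genes were called in place of 8812. Of the pathway genes named, Atf2, Atf3 and Dusp1 were not called with the block (edgeR adjusted p 0.0547, 0.0654 and 0.0994). No scaling moved the median of all genes by over 0.1. Fosb, at 45 to 96 counts, is the gene for which depth limits precision most.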
